A study of Mus musculus with 70 samples.

Results

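The 10 genes described here encode the constant regions of mouse immunoglobulins and the joining chain of polymeric antibodies. They are the heavy chain genes Ighm, Ighd, Ighg1, Ighg2b, Ighg2c, Ighg3 and Igha, the light chain genes Igkc and Iglc1, and Jchain. They were taken by name as 10 of the 52636 genes counted in RNA libraries of 4 sorted cell types, namely B cells, T cells, Ly6Chigh monocytes and Ly6Clow monocytes. The groups were control mice (CON) and mice that were susceptible (SUS) or resilient (RES) to chronic social defeat stress (CSDS), which lasted 10 days. In CSDS, young adult male C57BL/6J mice met an unfamiliar aggressive CD-1 mouse each day, and a social interaction ratio below 1 on the following day defined SUS mice and a ratio of at least 1 RES mice. All mice were of the same strain and sex and carried no engineered allele. The sample labels name brain as the source, whereas the study's methods describe leukocytes sorted from blood. B cells were gated by B220 and T cells by CD90.2. Of 70 libraries, 68 were used. These were 6 CON, 6 SUS and 5 RES libraries of B cells, the same numbers of T cells, 6 libraries in each group of Ly6Chigh monocytes, and 4 CON, 6 SUS and 6 RES libraries of Ly6Clow monocytes.

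An immunoglobulin is built from paired heavy and light chains, and the constant region of the heavy chain sets its class. A naive B cell makes IgM and IgD together by alternative splicing of one long transcript that holds both the Ighm and the Ighd exons. After class switching, a B cell joins its variable region to an Ighg or Igha constant gene instead, and a plasma cell secretes the product in large amounts. Light chains come from the kappa locus with Igkc or from the lambda locus with Iglc1 and its relatives, and in mice most are kappa. Jchain is made by antibody-secreting cells, where it links IgM into pentamers and IgA into dimers.

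The 7 heavy chain genes lie in a row on the minus strand of chromosome 12 (GRCm38, GENCODE M21), from Ighm at chr12:113418558-113422730 to Igha at chr12:113254830-113260236. Igkc is at chr6:70726435-70726966 on the plus strand, Iglc1 at chr16:19061618-19062071 on the minus strand and Jchain at chr5:88519809-88527891 on the minus strand. Igkc lies inside the long noncoding gene Gm30211 on the same strand and Iglc1 inside the antisense gene 2010309G21Rik, and the other 8 genes overlap no annotated gene. Near-identical copies could share reads, so the start of the coding sequence is shown for the 4 IgG genes and for Iglc1 with its relatives Iglc2 and Iglc3, and capitals mark bases that differ from the first sequence of each set. The 4 IgG stretches are at chr12:113330430-113330519 (Ighg1), chr12:113307840-113307929 (Ighg2b), chr12:113288839-113288928 (Ighg2c) and chr12:113361139-113361228 (Ighg3), and the lambda stretches are at chr16:19061980-19062069 (Iglc1), chr16:19198761-19198850 (Iglc2) and chr16:19065590-19065679 (Iglc3), each printed 5′ to 3′ along the minus strand.
Ighg1: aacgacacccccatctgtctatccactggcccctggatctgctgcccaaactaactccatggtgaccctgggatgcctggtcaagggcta
Ighg2b: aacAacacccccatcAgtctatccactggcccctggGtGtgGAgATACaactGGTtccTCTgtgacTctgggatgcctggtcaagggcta
Ighg2c: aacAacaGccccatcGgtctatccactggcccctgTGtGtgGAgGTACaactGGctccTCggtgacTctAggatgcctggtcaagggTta
Ighg3: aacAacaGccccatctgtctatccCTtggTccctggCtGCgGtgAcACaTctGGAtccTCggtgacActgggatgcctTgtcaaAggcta
Iglc1: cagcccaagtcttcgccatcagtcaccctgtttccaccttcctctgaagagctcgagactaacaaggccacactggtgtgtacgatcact
Iglc2: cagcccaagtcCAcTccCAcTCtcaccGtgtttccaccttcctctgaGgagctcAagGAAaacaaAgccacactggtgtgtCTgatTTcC
Iglc3: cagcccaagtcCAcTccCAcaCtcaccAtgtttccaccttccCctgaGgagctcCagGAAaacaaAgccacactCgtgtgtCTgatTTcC
Over these 90 bases, Ighg2b, Ighg2c and Ighg3 differed from Ighg1 at 17, 19 and 21 positions, and Iglc2 and Iglc3 differed from Iglc1 at 19 and 20. Over whole transcripts, the share of windows of 50 bases that also occurred in another gene was 0.39% for Ighg1, 4.15% for Ighg2b, 5.49% for Ighg2c and 1.58% for Ighg3, and none was shared for the other 6 genes. Reads of the IgG genes could thus be ambiguous between them only over a small part of their length.

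The libraries held between 19769835 and 67038231 counts. The library labelled RES B cells with the number 52 had 14544 counts of the T cell gene Cd3e, 203 of the B cell gene Cd79a and no count of 7 members, and the library labelled RES T cells with the number 70 had 4 counts of Cd3e, 39530 of Cd79a and 94045 of Ighm. Both were left out, and values with them kept under their labels are given with the processing alternatives. In the libraries used, the summed level of 8 B lineage genes was 5534 to 6853 CPM (counts scaled to a common library size of 1e6) in B cells and at most 81.0 CPM elsewhere, and that of 6 T cell genes was 1863 to 2678 CPM in T cells and at most 6.86 CPM elsewhere. The summed level of 5 natural killer genes was 276 to 1473 CPM in Ly6Clow monocytes and 56.8 to 231 CPM in T cells. It was at most 41.9 CPM in Ly6Chigh monocytes and 37.9 CPM in B cells. The part of natural killer cells in the Ly6Clow values was not tested. No label ties libraries of different cell types to one mouse or gives a batch.

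In B cells, the members fell into an abundant set of 4 genes and a scarce set of 6. Levels are compared between genes as CPM per kilobase of exon (CPM/kb), given as mean ± SD over the 17 B cell libraries. Igkc, the kappa light chain, was at 4265 ± 585 CPM/kb, Ighm at 1781 ± 236, Ighd at 843 ± 51.4 and the lambda gene Iglc1 at 330 ± 50.8. Each of these 4 stood above the next in all 17 libraries, and Iglc1 stood above Igha in all 17. The class-switched genes followed with Igha, the IgA heavy chain, at 5.34 ± 4.86 CPM/kb, Ighg2b at 3.39 ± 2.28, Ighg3 at 2.39 ± 1.24, Ighg1 at 1.36 ± 0.846 and Ighg2c at 0.892 ± 1.51, and Jchain was at 0.853 ± 0.884. The order within this scarce set was not stable, since each gene stood above the next in only 8 to 13 of 17 libraries. Class-switched genes made up 0.505% ± 0.280 of heavy chain RNA per length (range 0.220% to 1.30%), and Iglc1 made up 7.20% ± 0.615 of Igkc and Iglc1 together. The other lambda genes Iglc2 (499 ± 109 CPM/kb) and Iglc3 (219 ± 42.7 CPM/kb) are no part of this measure, so it is not the whole lambda share. Together the 10 genes held 0.473% to 0.855% of all counts of a B cell library.

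Between cell types, the comparison in CON mice asked how far immunoglobulin RNA was restricted to the B cell gate. Ighm, Ighd and Igkc were higher in B cells than in T cells and than in Ly6Chigh monocytes, by edgeR's quasi-likelihood test. The other 7 members were called higher in both comparisons too, but within T cells or Ly6Chigh monocytes they did not pass the filter on low counts, and they entered the fit only through the groups where they are high, so that nothing is read from the count of 10 of 10. A call here means an adjusted p below 0.05 together with a log2 fold change beyond 1 in either direction. The same call was made for 20.0% of the 24248 genes tested against T cells and 32.3% against Ly6Chigh monocytes, in either direction. In bulk samples, fewer cells with a transcript and less of it per cell cannot be told apart. For Igkc the log2 fold change was 10.8 (SE 1.17, adjusted p = 2.25e-11) against T cells and 9.99 (SE 1.13, adjusted p = 4.89e-11) against Ly6Chigh monocytes. For Ighd it was 8.29 (SE 0.548) and 9.89 (SE 0.589), and for Ighm only 3.95 (SE 0.141) and 4.58 (SE 0.145). With DESeq2, Ighg2c lost its calls against T cells (adjusted p = 0.0740) and against Ly6Chigh monocytes (adjusted p = 0.0581), and Jchain lost its call against Ly6Chigh monocytes (adjusted p = 0.0835). Jchain against Ly6Chigh monocytes, with a log2 fold change of 3.03 (SE 1.26, adjusted p = 0.0444), also lost its call when any 1 of 7 of the 22 CON libraries was left out, namely Ly6Chigh libraries 7, 10, 13 and 16 and B cell libraries 38, 44 and 50.

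Several IgG genes had no count in CON T cells or CON Ly6Chigh monocytes, although CON Ly6Clow monocytes held 387 counts of Ighg1, 683 of Ighg2b and 75 of Ighg3, and SUS T cells held 22 counts of Ighg3 and 26 of Ighg2c. Ighg3 had no count in any of the 6 CON T cell libraries, so that its mean of 5.92 CPM in CON B cells was at least 483-fold higher, set against a floor of 3 counts over the whole group. By the same floor, CON B cells were at least 442-fold higher than CON Ly6Chigh monocytes for Ighg3, 487-fold for Ighg2b and 188-fold for Ighg1. For the scarce Ighg2c, which encodes the IgG2c heavy chain of this strain, the bound was only 16.0-fold against T cells and 14.6-fold against Ly6Chigh monocytes. These floors cover counting error only.

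**Figure D1:**
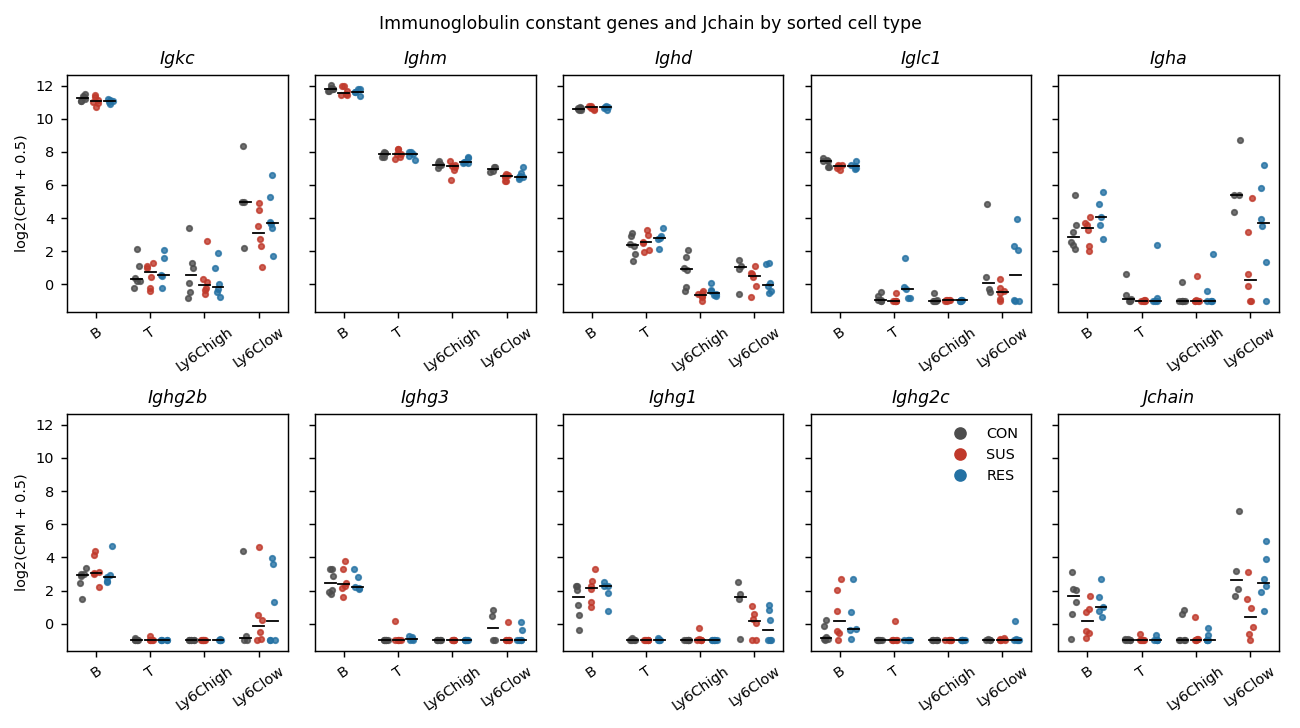
Each panel plots 1 gene as log2(CPM + 0.5) in each library by cell type, with points coloured by group (CON, SUS, RES) and short black lines at group medians. Igkc, Ighm, Ighd and Iglc1 stood highest in all 17 B cell libraries, Ighm kept a level of 75.3 CPM or more in every other library, and Igha and Jchain spread widely in Ly6Clow monocytes.

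Ighm was the exception among the members, because it was well counted in every cell type. Its level was 178 to 292 CPM in T cells (median 236), 76.7 to 203 CPM in Ly6Chigh monocytes (median 154) and 75.3 to 137 CPM in Ly6Clow monocytes (median 95.4), against 2634 to 4130 CPM in B cells (median 3295). The ranges of B cells and T cells did not overlap. In CON mice, T cells were above Ly6Chigh monocytes by 0.63 on the log2 scale (SE 0.125, adjusted p = 2.33e-05), which is under the fold threshold, and the log2 fold change of Ly6Clow against Ly6Chigh monocytes was -0.29 (95% interval -0.56 to -0.01, unadjusted p = 0.0458, adjusted p = 0.164 by edgeR), which was not called. Between T cells and Ly6Chigh monocytes, 2 of the 10 members were called, where 32.4% of all genes were. Ighd was higher in T cells (1.60, SE 0.440) and Jchain lower (adjusted p = 0.0178 by edgeR). Jchain and the other members besides Ighm, Ighd and Igkc did not pass the filter on low counts within either cell type. Nothing is thus read from this count or from the call of Jchain. Jchain had 3 counts in all CON T cell libraries together and 83 in the CON Ly6Chigh libraries, 4 of which were at 0, and only 1 member was called without Ly6Chigh library 1. The median of Ighm in T cells was 7.16% of that in B cells, whereas it was 0.341% for Ighd, 0.0414% for Igkc, 0.225% for the summed B lineage genes and 0.151% for the summed 113 heavy chain variable genes. In Ly6Chigh monocytes these shares of the B cell median were 4.67% for Ighm, 0.0159% for Ighd, 0.0241% for Igkc and 0.163% for the B lineage genes. Ighm thus stood at a higher share of its B cell level than its partner genes did.

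The same levels were also expressed as a ratio within each library, using the constant genes per length after adding 0.5 to their counts. In CON B cells the log2 ratio of Ighd to Ighm was -1.21 ± 0.178 (SD, n = 6), and the ratio of Igkc to Ighm was 1.27 ± 0.226. The ratio of Ighd to Ighm was -5.67 in CON T cells, -7.03 in CON Ly6Chigh monocytes and -6.97 in CON Ly6Clow monocytes, and it lay below every B cell value in each. The ratio of Igkc to Ighm was -6.05 in T cells and -5.69 in Ly6Chigh monocytes, again below every B cell value. The remaining ratio, Igkc to Ighm in Ly6Clow monocytes, was -0.02 ± 2.68 (SD, n = 4) and overlapped with B cells. The ratios were chosen after the levels above were seen and are a description, with no test. The summed counts of the heavy chain variable genes were 20.0% to 24.4% of the Ighm counts in B cell libraries, 0.0996% to 1.89% in T cell libraries and 0% to 3.91% in Ly6Chigh libraries. In Ly6Clow libraries they ranged from 0.679% to 128%, with CON library 32 at 128%, RES library 31 at 72.8% and RES library 34 at 23.7%, and so overlapped with B cells. The sum covers variable genes joined to any constant gene, so it is not the share of Ighm RNA that carries one. Igha had 14067, 5562 and 2325 counts in libraries 32, 31 and 34, against 3790, 3341 and 3768 of Ighm.

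**Figure D2:**
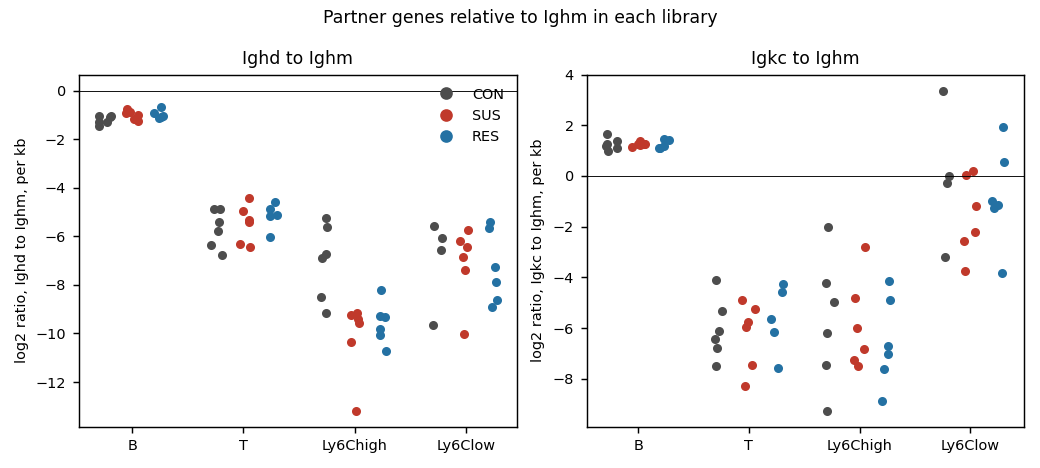
The panels plot the log2 ratio of Ighd to Ighm (left) and of Igkc to Ighm (right), each per kilobase of exon and with 0.5 added to the counts, for every library by cell type, coloured by group. All B cell libraries lie between -1.48 and -0.70 on the left and between 1.00 and 1.64 on the right, and Ly6Clow monocytes on the right spread from -3.83 to 3.37.

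Ly6Clow monocyte libraries held RNA of IgA, kappa and Jchain in very unequal amounts. Wide spreads were not particular to this gate. Jchain in B cells ran from 0.0226 to 8.17 CPM and Igkc in Ly6Chigh monocytes from 0.0574 to 9.99 CPM. In the 4 CON libraries of Ly6Clow monocytes, Igha was at 20.2, 40.8, 40.9 and 419 CPM, Jchain at 2.69, 3.75, 8.45 and 113 CPM, and Igkc at 4.17, 31.1, 31.3 and 330 CPM. The highest value of all 3 genes came from 1 library, CON number 32, which stood far above the others. In SUS libraries, Igha ranged from 0 to 36.5 CPM (median 0.743), Jchain from 0 to 8.13 CPM (median 0.915) and Igkc from 1.57 to 30.1 CPM (median 8.56). In RES libraries, Igha ranged from 0 to 145 CPM (median 12.9), Jchain from 1.18 to 31.7 CPM (median 5.15) and Igkc from 2.716 to 94.98 CPM (median 12.4). For all 3 genes the ranges of the RES group overlapped with both other groups.

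Against CON Ly6Clow monocytes, 6 of the 10 members were called in CON B cells, where 28.9% of all genes were. Ighm, Ighd, Igkc and Iglc1 were higher in B cells, by 4.87 (SE 0.176), 10.2 (SE 0.723), 4.62 (SE 1.06) and 4.51 (SE 1.01) on the log2 scale. Jchain and Igha were lower in B cells, with log2 fold changes of -3.37 (SE 1.31, adjusted p = 0.0349) and -3.39 (SE 1.35, adjusted p = 0.0401). The calls of these genes rested on CON library 32, without which they were -0.67 (adjusted p = 0.790) and -1.43 (adjusted p = 0.499). They were also lost without B cell library 35, 41, 44 or 47, for Igha also without 38, and with DESeq2 (adjusted p = 0.0751 for Jchain and 0.150 for Igha). Without library 32, Ighg2b was called as higher in B cells, with a log2 fold change of 7.48 (adjusted p = 0.00597) in place of 0.36 (adjusted p = 0.900).

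Compared with CON Ly6Chigh monocytes, CON Ly6Clow monocytes had higher RNA of Igha, Jchain, Igkc, Iglc1, Ighg1, Ighg2b and Ighg3, which are 7 of the 10 members, where 10.6% of all genes were called. Compared with CON T cells, the same 7 genes were higher and Ighd was lower (-1.86, SE 0.518), which are 8 of 10 where 27.1% of all genes were called. Of these genes, only Ighd and Igkc passed the filter within T cells or Ly6Chigh monocytes. Nothing is therefore read from these counts, or from whether the other genes kept their calls without CON library 32. Without library 32, Igkc stayed above Ly6Chigh monocytes by 3.21 (adjusted p = 0.00810) and above T cells by 3.95 (adjusted p = 0.000400). For the genes that failed the filter, only log2 fold changes without that library are given. Against Ly6Chigh monocytes they were 8.29 for Igha, 3.71 for Jchain and 3.62 for Iglc1, and against T cells 2.63 for Iglc1. Jchain, Iglc1 and Ighg2b were then not called against Ly6Chigh monocytes, nor Iglc1 and Ighg2b against T cells.

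Within Ly6Clow monocytes, Igha, Jchain and Igkc varied together. The relations of Igha with Jchain, Igkc with Igha and Jchain with plasma cell genes were chosen after these levels were seen. They are thus a description, and nothing is read from their p-values. Over the 16 libraries, log2 levels of Igha and Jchain had a Pearson r of 0.874 (permutation p = 1e-05, the smallest that 100000 permutations give) and a Spearman rho of 0.873 (permutation p = 7e-05). Without the 2 libraries farthest from the median of Igha, r was 0.885, within RES libraries it was 0.974 and within SUS libraries 0.727. Igkc and Igha had an r of 0.820 (permutation p = 2e-05) and a rho of 0.823 (permutation p = 0.00017), and r was 0.699 without the 2 libraries farthest from the median of Igkc. Jchain and the mean of 6 plasma cell genes had an r of 0.696 (permutation p = 0.00374) but a rho of 0.438 (permutation p = 0.0902), and r fell to 0.457 without library 32, where it no longer passed the threshold. Benjamini-Hochberg adjustment over these 3 relations gave 3e-05, 3e-05 and 0.00374 for r and 0.00021, 0.000255 and 0.0902 for rho. In contrast, Igkc did not follow the mean of the B lineage genes in this cell type (r = 0.0182, permutation p = 0.947; rho = 0.00588, permutation p = 0.987). The summed B lineage genes were 61.8 to 81.0 CPM in CON, 53.4 to 75.7 CPM in SUS and 44.7 to 63.4 CPM in RES libraries. Of the plasma cell genes, Mzb1, a chaperone of IgM and IgA assembly, was highest in library 32 at 7.98 CPM and at most 2.55 CPM in the other 15, and Tnfrsf17, the survival receptor of plasma cells, was at 2.32 CPM in library 32, at most 0.886 CPM elsewhere and at 0 in 12 libraries. The other 4 plasma cell genes did not peak in library 32, where Sdc1 was at 3.57 CPM (highest elsewhere 7.06), Prdm1 at 21.6 (39.7), Xbp1 at 184 (238) and Derl3 at 3.42 (3.43). The part of these markers in the levels of the members was not tested.

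**Figure D3:**
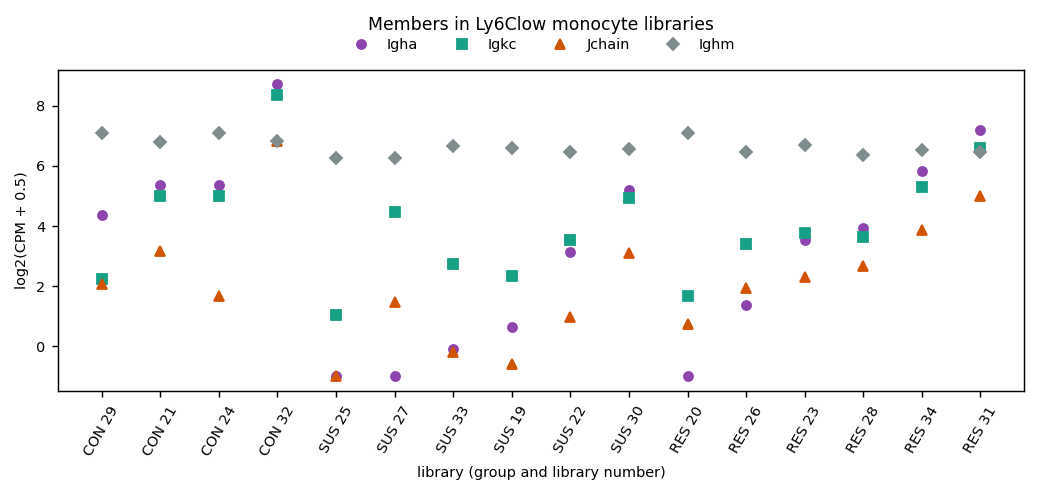
The plot gives log2(CPM + 0.5) of Igha, Igkc, Jchain and Ighm in each of the 16 Ly6Clow monocyte libraries, arranged by group and, within a group, by the level of Igha. Igha, Igkc and Jchain peaked together in CON library 32, while Ighm stayed between 75.3 and 137 CPM in all 16.

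In Ly6Clow monocytes, stress moved no member past the thresholds. Of 9 members tested, none was called between SUS and CON (0.0871% of all genes were called), RES and CON (0.0154%) or SUS and RES (0.0%). At an unadjusted p under 0.05, 5 members passed in SUS vs. CON, 1 in RES vs. CON and 0 in SUS vs. RES, beside 1857, 1888 and 740 of all 19521 genes, and DESeq2 called 0 in each. The SUS vs. CON log2 fold changes were -4.07 for Igha (SE 1.73, adjusted p = 0.469), -3.94 for Jchain (SE 1.38, adjusted p = 0.334), -4.79 for Iglc1 (SE 1.90, adjusted p = 0.426) and -2.98 for Igkc (SE 1.17, adjusted p = 0.418). Without CON library 32 they moved to -2.15, -1.27, -0.86 and -0.83. Ighm was the steadiest, at 110 to 135 CPM in 4 CON libraries against 75.3 to 100 CPM in 6 SUS libraries. Every SUS library was below every CON library, which held for 0.845% of the 19521 genes tested in this direction, and the log2 fold change was -0.48 (SE 0.123, adjusted p = 0.0952). With DESeq2 the adjusted p was 0.0359, and the fold change of -0.49 was still under the threshold. The 6 RES libraries lay between 82.0 and 137 CPM for Ighm and overlapped with both groups (RES vs. CON -0.35, SE 0.123, adjusted p = 0.305).

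In Ly6Chigh monocytes, Ighd was the only member called in a stress comparison. Ighd had 9 to 137 counts in the CON libraries (median 55.5), 0 to 9 in the SUS libraries (median 6.0) and 5 to 25 in the RES libraries (median 6.0). The CON and SUS ranges met at their ends, with the lowest CON library at 0.258 CPM and the highest SUS library at 0.271 CPM. The log2 fold change was -3.55 (SE 1.07, adjusted p = 0.0308) in SUS vs. CON, where 3.45% of all genes were called. In RES vs. CON it was -2.71 (SE 1.03, adjusted p = 0.122) and 0.997% of genes were called, and in SUS vs. RES it was -0.84 (SE 0.986) and 0.0% were called. DESeq2 gave -3.66 for SUS vs. CON, with an unadjusted p of 9.27e-07 but no adjusted p, so no call could be made. For RES vs. CON, DESeq2 gave -2.79 with an adjusted p of 0.00656. The SUS vs. CON call was lost without CON library 1 or 7 or SUS library 2, 8 or 11, with an adjusted p of up to 0.0933. It was also lost without the filter on low counts (adjusted p = 0.0719).

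The other members tested in Ly6Chigh monocytes, Ighm and Igkc, were not called. Ighm was at 131 to 172 CPM in CON, 76.7 to 174 CPM in SUS and 157 to 203 CPM in RES libraries, with log2 fold changes of -0.21 (SE 0.150, adjusted p = 0.401) in SUS vs. CON and 0.21 (SE 0.150, adjusted p = 0.460) in RES vs. CON. Igkc ranged from 0.0574 to 9.99 CPM in CON and 0.172 to 5.71 CPM in SUS libraries, with a log2 fold change of -0.86 (SE 1.07, adjusted p = 0.663). The B lineage sum reached 21.5 CPM in CON (lowest 7.07), 12.2 CPM in SUS (lowest 6.36) and 15.4 CPM in RES libraries (lowest 7.17), and the summed T cell genes were at most 3.10, 2.00 and 2.15 CPM. The summed red cell genes were 343 to 1215 CPM in CON and 1097 to 8984 CPM in SUS libraries. The part of these other cells in the Ighd counts was not tested.

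**Figure D4:**
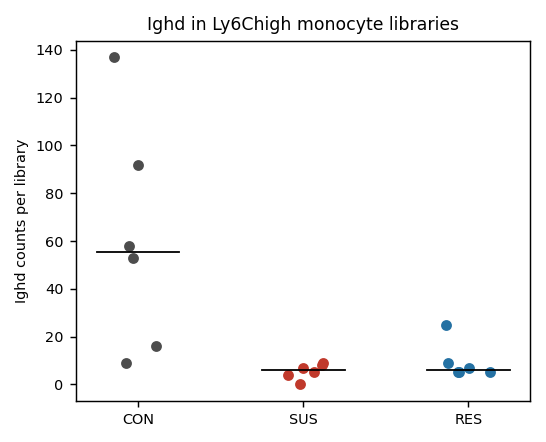
Points give the raw Ighd counts of each Ly6Chigh monocyte library by group and black lines the group medians of 55.5 (CON), 6.0 (SUS) and 6.0 (RES). Of the 6 CON libraries, 4 lie above all SUS and RES libraries.

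In T cells, the 3 members tested were Ighm, Ighd and Igkc, and none was called between SUS and CON (0.0265% of all genes were called), RES and CON (0.0%) or SUS and RES (0.0%). None of these 3 members reached an unadjusted p under 0.05 by edgeR in any of the 3 contrasts, and DESeq2 called 0. DESeq2, run without that filter, gave Iglc1 3.36 in RES vs. CON (unadjusted p = 0.0371, adjusted p = 0.772). In SUS vs. RES it gave Iglc1 -4.27 (unadjusted p = 0.00957), which was not called after adjustment. Of the 156 counts of Iglc1 in RES T cells, 126 came from 1 library. Ighm was at 205 to 258 CPM in CON, 193 to 292 CPM in SUS and 178 to 252 CPM in RES libraries, with a log2 fold change of 0.05 (95% interval -0.17 to 0.26) in SUS vs. CON. Ighd was at 2.21 to 8.14 CPM, 3.35 to 9.05 CPM and 3.83 to 9.94 CPM in the same order, and the groups overlapped.

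In B cells, no member was called in any stress comparison. All 10 were tested, and 0 were called between SUS and CON, RES and CON, or SUS and RES, where 0.00568%, 0.0% and 0.0% of 17620 genes were called. At an unadjusted p under 0.05, 2 members passed in SUS vs. CON (Ighg2c and Iglc1), 1 in RES vs. CON (Ighg2c) and 0 in SUS vs. RES, beside 602, 560 and 240 of all 17620 genes, and DESeq2 called 0 in each. The median log2 fold change of the 10 members was -0.03 in SUS vs. CON and -0.01 in RES vs. CON, against -0.00149 and 0.001 over all genes. Both contrasts used the same CON libraries.

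The abundant members were held within narrow limits. Ighm ranged from 3286 to 4130 CPM in CON (median 3547), 2750 to 4011 CPM in SUS (median 3056) and 2634 to 3571 CPM in RES libraries (median 3154). The groups overlapped, and the log2 fold changes were -0.13 (95% interval -0.35 to 0.10) in SUS vs. CON and -0.16 (95% interval -0.40 to 0.08) in RES vs. CON. Ighd, spliced from the same primary transcript, ranged from 1461 to 1689 CPM in CON, 1444 to 1762 CPM in SUS and 1494 to 1754 CPM in RES libraries, with log2 fold changes of 0.06 (SE 0.0886) and 0.06 (SE 0.0929). Igkc was at 2111 to 2893, 1701 to 2711 and 1902 to 2348 CPM, with log2 fold changes of -0.14 (SE 0.115) and -0.18 (SE 0.121). Iglc1 was at 133 to 201 CPM in CON (median 175), 120.0 to 148 CPM in SUS (median 142) and 124 to 177 CPM in RES libraries (median 142). Its log2 fold changes were -0.27 (SE 0.116, unadjusted p = 0.0286, adjusted p = 0.999 by edgeR) and -0.21 (SE 0.122). For these 4 genes, the 95% intervals of both contrasts lay within -0.497 and 0.243, inside the fold threshold.

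The scarce members varied much more between libraries, and their intervals were correspondingly wide. Ighg2c, the IgG2c heavy chain, had 0, 1, 1, 2, 12 and 20 counts in the CON libraries, 0, 5, 6, 41, 107 and 282 in the SUS libraries and 1, 8, 12, 31 and 243 in the RES libraries. Most of its counts came from SUS libraries 48 and 39 and RES library 49, and all groups overlapped. Its log2 fold changes were 3.24 (95% interval 0.76 to 5.73, adjusted p = 0.999) in SUS vs. CON and 2.98 (95% interval 0.47 to 5.49, adjusted p = 1.00) in RES vs. CON. With single libraries left out these ranged from 2.40 to 4.17 and from 1.16 to 3.90, the 1.16 without RES library 49. Jchain was at 0.0226 to 8.17 CPM in CON (median 2.80), 0.0413 to 2.75 CPM in SUS (median 0.695) and 0.821, 1.24, 1.53, 2.58 and 6.01 CPM in RES libraries. Its log2 fold changes were -1.69 (SE 0.850, unadjusted p = 0.0574, adjusted p = 0.999 by edgeR), -0.34 (SE 0.866) in RES vs. CON and -1.35 (SE 0.872) in SUS vs. RES. The CON group held both the lowest and the highest Jchain library of all B cell libraries, so no group stood apart.

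Igha was at 3.91 to 40.8 CPM in CON (median 6.89), 3.51 to 16.4 CPM in SUS (median 10.2) and 6.21, 11.7, 16.0, 28.1 and 48.1 CPM in RES libraries. The log2 fold changes were -0.38 (SE 0.601) in SUS vs. CON, 0.83 (SE 0.624) in RES vs. CON and -1.20 (SE 0.627) in SUS vs. RES. The first turned to 0.51 without CON library 50, which held 1224 of the 2357 CON counts. Ighg2b was at 2.35 to 9.74 CPM in CON, 4.24 to 20.2 CPM in SUS and 5.19 to 25.5 CPM in RES libraries, with log2 fold changes of 0.74 (SE 0.408) and 0.62 (SE 0.424), and the second was -0.09 without RES library 49. Ighg1 was at 0.267 to 4.38, 1.55 to 9.39 and 1.21 to 5.18 CPM, with log2 fold changes of 0.82 (SE 0.536) and 0.54 (SE 0.557). Ighg3 was at 2.92 to 9.56, 2.61 to 13.3 and 3.81 to 9.43 CPM, with log2 fold changes of 0.14 (SE 0.391) and -0.08 (SE 0.411), and it changed sign without single libraries.

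**Figure D5:**
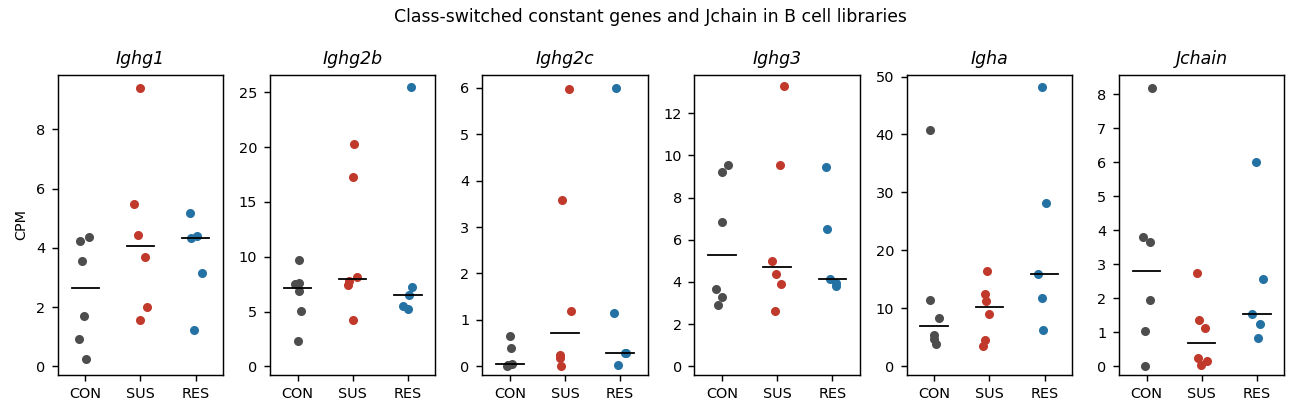
Each panel plots the CPM of 1 class-switched constant gene or of Jchain in every B cell library by group, with black lines at group medians. In each panel the 3 groups overlap, and the highest library of Ighg2b (25.5 CPM), Ighg2c (5.98 CPM) and Igha (48.1 CPM) was RES library 49.

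The composition of immunoglobulin RNA in B cells was compared as 8 measures, each over 3 contrasts, by exact two-sided permutation tests adjusted over the 24 tests. None of the 24 passed an adjusted p of 0.05. The smallest exact p that the group sizes allow is 0.00216, so that after adjustment over 24 tests no single measure could have passed on its own. The IgG genes made up 0.2145% ± 0.0569 of heavy chain RNA in CON (n = 6), 0.377% ± 0.128 in SUS (n = 6) and 0.323% ± 0.193 in RES libraries (n = 5). The SUS vs. CON difference of 0.163 percentage points had an exact permutation p of 0.0238 and an adjusted p of 0.468, and 4 of 6 SUS libraries lay above all CON libraries. Igha made up 0.164% ± 0.174 in CON, 0.140% ± 0.0783 in SUS and 0.318% ± 0.224 in RES libraries (exact permutation p = 0.853 and 0.214 against CON, adjusted p = 0.921 and 0.583). In the same order, the log2 ratio of Ighd to Ighm was -1.21 ± 0.178, -1.01 ± 0.175 and -0.98 ± 0.176 (exact permutation p = 0.0844 and 0.0736 against CON, both with an adjusted p of 0.468). The share of Iglc1 in Igkc and Iglc1 together, which leaves out Iglc2 and Iglc3, was 7.41% ± 0.478, 6.92% ± 0.774 and 7.28% ± 0.538 in the same order (exact permutation p = 0.219 and 0.647 against CON, adjusted p = 0.583 and 0.872). The log2 ratio of heavy to light chain RNA was -0.85 ± 0.209, -0.77 ± 0.0742 and -0.76 ± 0.136. The log2 ratio of Jchain to Ighm was -11.8 ± 3.05, -13.3 ± 2.28 and -11.1 ± 1.09, so that Jchain RNA was rare beside IgM in every library.

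Relations between log2 levels across libraries were tested as a family of 11, of which 8 were in the 17 B cell libraries. Ighm followed the mean of 8 B lineage genes (r = 0.881, permutation p = 1e-05, adjusted p = 0.00011; rho = 0.890, permutation p = 2e-05, adjusted p = 0.00022), with r of 0.858 without the 2 libraries farthest from the median of Ighm, 0.875 within CON and 0.958 within SUS. Igkc followed Iglc1 (r = 0.786, permutation p = 0.0002, adjusted p = 0.0011; rho = 0.816, permutation p = 0.00013, adjusted p = 0.000715), with r of 0.650 without the 2 farthest libraries, 0.921 within CON and 0.762 within SUS. Jchain and Igha had r = 0.599 (permutation p = 0.0109, adjusted p = 0.0400) and rho = 0.564 (permutation p = 0.0198, adjusted p = 0.0546), and r was 0.439 without CON libraries 41 and 50, on which this relation rested. For Ighm and Ighd no relation passed the test (r = 0.206, permutation p = 0.424, adjusted p = 0.519; rho = 0.203, permutation p = 0.431), and r was -0.54 within CON and 0.815 within SUS libraries. Jchain with Ighm, with the summed IgG genes and with the plasma cell genes had r between 0.233 and 0.262. For Jchain with the IgG genes, r rose from 0.262 to 0.577 with group means subtracted, where it passed the threshold, and it was 0.428 within CON and 0.572 within SUS libraries. The switched genes with the plasma cell genes had r = 0.417 (permutation p = 0.0958, adjusted p = 0.211). In T cells, Igkc with the B lineage genes had r = 0.549 (permutation p = 0.0220, adjusted p = 0.0606) and rho = 0.625 (permutation p = 0.00888, adjusted p = 0.0326), and in Ly6Chigh monocytes r was -0.0244. These levels share the scaling to library size.

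The other genes of the antibody pathway were likewise uncalled in B cells. Of 20 genes of the secretory program of plasma cells, 19 were tested, 0 rose and 0 fell in the 3 stress contrasts, and the smallest unadjusted p in SUS vs. CON were those of Sdc1, the plasma cell surface proteoglycan (-0.80, SE 0.226, adjusted p = 0.755 by edgeR), and Tent5c, a poly(A) polymerase (1.33, SE 0.494, adjusted p = 0.999). The median log2 fold change of this list was -0.0851, against -0.00149 for all genes. Of 16 genes of class switching, 0 were called, and Tbx21, which directs switching to IgG2 in mice, was at 1.34 (SE 0.655) and Xrcc6, a DNA end-joining factor, at -0.23 (SE 0.128). Of 16 signalling partners and transcription factors of the B cell receptor, 0 were called, with Btk, its kinase, at -0.28 (SE 0.101) and Pou2af1, a coactivator of immunoglobulin promoters, at 0.22 (SE 0.1196). Of 9 immunoglobulin receptors, 0 were called, with the IgE receptor Fcer2a at -0.11 (SE 0.112) and Fcrl5 at 0.27 (SE 0.317). Of 13 genes of B cell subsets, 0 were called, with Cd93, a marker of immature B cells, at -0.89 (SE 0.201, adjusted p = 0.236) and Spn at 0.23 (SE 0.166). DESeq2 called Cd93 in RES vs. CON, at -1.08 (SE 0.215, adjusted p = 0.00509), where edgeR gave -1.07 (SE 0.214, adjusted p = 0.589). In SUS vs. CON, DESeq2 gave Cd93 -0.90 (SE 0.205, adjusted p = 0.01065), which was under the fold threshold. Of the other 4 constant genes, 3 were tested and 0 called, with Iglc2 at -0.31 (SE 0.131) and Iglc3 at -0.19 (SE 0.138) in SUS vs. CON. Markers of other cells moved with the stress groups in these libraries. The 5 natural killer genes summed to 3.15 to 6.32 CPM in CON, 14.1 to 37.9 CPM in SUS and 9.95 to 23.4 CPM in RES libraries, the 6 monocyte genes to 27.0 to 44.3 CPM, 37.5 to 114 CPM and 40.7 to 99.2 CPM, and none of these 11 genes was at 0 throughout a group. The medians in CON, SUS and RES libraries were 2780, 5565 and 4651 CPM for 6 red cell genes, 0.201, 3.08 and 1.20 CPM for 6 neutrophil genes, of which Mmp9 was at 0 in all CON libraries, and 25.8, 53.0 and 32.1 CPM for 6 platelet genes. The 6 T cell genes summed to at most 6.86 CPM. Their part in the B cell values was not tested.

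The genes most like a member were sought among 13599 genes of at least 1 CPM on average over the 17 B cell libraries, as a description. For Jchain the highest Pearson r were those of the pseudogene Ybx1-ps2 (0.813), Tbrg4 (0.752), Clk3 (0.712), the pseudogene Gm11847 (0.708) and Nfxl1 (0.701). For Igha they were those of Fam120b (0.697), Rnf25 (0.693), Rab12 (0.690), Gpr55 (0.664) and Galns (0.661). For Ighg2c they were those of the long noncoding gene Gm16001 (0.763), F13a1 (0.743), H2-Eb2 (0.737), Ccr6 (0.713) and Fahd2a (0.704). None of the 15 was on the lists of secretory or class switching genes.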

How the data were processed

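Per the labels and methods, the authors aligned paired-end reads of total RNA libraries (SMARTer Pico, low input, without molecular identifiers) to mm10 with HISAT2, counted reads on Ensembl genes with HTSeq and deposited raw counts per gene, 1 column per library. The strand setting of counting and any removal of duplicates are not given in the sources used here. All columns were read, and libraries 52 and 70 were left out. Of the 52636 identifiers, 52403 matched GENCODE M21. In R 4.3.3, edgeR 4.0.16 (filterByExpr, TMM, robust quasi-likelihood F test, Benjamini-Hochberg adjustment over all genes tested) was fitted to the 3 groups of each cell type, and to 12 groups over 68 libraries between cell types. Calls needed an adjusted p below 0.05 and a log2 fold change beyond 1 in either direction. SE is the absolute log2 fold change over the square root of F, and 95% intervals are 1.96 SE. CPM used 1 TMM scaling of 68 libraries, and log2 levels had 0.5 CPM added. DESeq2 1.42.0 was an alternative. On simulated counts with 200 genes changed by 2 on the log2 scale, the fit called 176 with 3 false calls in B cells (SUS vs. CON, 16859 genes), 168 with 7 in T cells (17962 genes), 161 with 4 in Ly6Chigh monocytes (16133 genes), 168 with 5 in Ly6Clow monocytes (18612 genes) and 149 with 3 for B cells vs. T cells (23279 genes). The genes changed in the simulation were drawn only from better counted genes, so these rates do not cover genes with few counts. Named were all 10 members and, per list, called genes or else the 2 of smallest p in B cells (SUS vs. CON). The members and lists were chosen with earlier results of these data known. Labels do not say which libraries came from separate mice, so p-values measure the spread between libraries.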

Additional observations from a re-analysis of the deposited data

Results flagged for a closer look

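In each group of 4 to 10 libraries, the highest or lowest library was compared with the rest by Dixon's ratio, and 21 of 99 groups of values had a library far from the others, where chance gives about 1 in 20 for independent normal values. These values are skewed, often 0 and partly overlapping, and the rate that chance gives for them was not determined. In Ly6Clow monocytes, CON library 32 stood apart for Igha (418.8 CPM, others 20.2 to 40.9), Igkc (329.6 CPM, others 4.17 to 31.3), Jchain (113.3 CPM, others 2.69 to 8.45), Iglc1 (28.11 CPM, others 0.226 to 0.892) and Ighg2b (20.22 CPM, others at most 0.0991). SUS library 30 stood apart for Igha (36.49 CPM, others at most 8.38) and Jchain (8.126 CPM, others at most 2.30), SUS library 27 for Ighg2b (24.74 CPM), SUS library 33 for Ighg3 (0.5869 CPM, others at 0) and RES library 31 for Iglc1 (14.8 CPM). In Ly6Chigh monocytes, the libraries apart were CON 4 for Igkc (9.989 CPM, others at most 1.961), SUS 5 for Igkc (5.709 CPM, others at most 0.748) and RES 12 for Ighd (0.555 CPM, others at most 0.276).

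In B cells, RES library 49 stood apart for Ighg2b (25.46 CPM, others at most 7.26), Ighg2c (5.983 CPM, others at most 1.16) and the IgG share of heavy chain RNA (0.6653%, others at most 0.272%). CON library 50 stood apart for Igha (40.84 CPM, others at most 11.5), the Igha share (0.5101%, others at most 0.165%) and the class-switched share (0.8095%, others at most 0.423%). SUS library 45 had a heavy to light log2 ratio of -0.6336 (others -0.842 to -0.768) and CON library 41 a Jchain to Ighm log2 ratio of -17.73, where Jchain had 1 count. The library labelled RES T cells with the number 70, which entered no comparison, had 1550 CPM of Ighd and 1779 CPM of Igkc, against 2.24 to 8.27 and 0.356 to 3.98 CPM in CON T cells.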

How the results depend on the processing

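Across the counts of members called and the families of tests, 483 alternative values stayed within 1.5 times the reported count and 14 did not. In Ly6Chigh monocytes, the 1 member called in SUS vs. CON became 0 with DESeq2, where Ighd had no adjusted p. The count also became 0 without a filter on low counts and with at least 10 counts in every library (where Ighd was not tested). It was 0 to 1 with single libraries left out, while RES vs. CON had 1 with DESeq2. T cells against Ly6Chigh monocytes had 1 member called in a fit of the 4 CON groups alone and 1 to 2 with single libraries left out, and Ly6Clow against Ly6Chigh monocytes had 4 to 7, the 4 without CON library 32. With libraries 52 and 70 kept under their labels, 6 relations passed in place of 3, and DESeq2 called 1 gene of the pathway lists (Cd93). The cause was not tested. The comparisons among cell types other than B cells, the ratios by cell type, the relations in Ly6Clow monocytes and the omission of single CON libraries between cell types were chosen after seeing the data.

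Directions turned in the following cases, where no reported value was called. With single libraries left out, log2 fold changes in B cells ranged from -0.085 to 0.78 for Ighg2b (RES vs. CON), -0.20 to 0.32 (SUS vs. CON) and -0.35 to 0.11 (RES vs. CON) for Ighg3, -0.60 to 0.51 for Igha (SUS vs. CON) and -1.001 to 0.23 for Jchain (RES vs. CON). In Ly6Clow monocytes, RES vs. CON ranged from -2.98 to 0.15 for Igha, -2.73 to 0.34 for Igkc and -2.49 to 1.00 for Jchain, each positive only without CON library 32. Between cell types, Ighg1 (B cells against Ly6Clow monocytes) ranged from -0.45 to 0.53 and Ighd (Ly6Clow against Ly6Chigh monocytes) from -0.64 to 0.17, whereas Ighg2b (B cells against Ly6Clow monocytes) ranged from -0.036 to 7.48 and was called at the upper end. In B cells, the difference in the Igha share ranged from -0.0485 to 0.0448 percentage points (SUS vs. CON), in the share of Iglc1 in Igkc and Iglc1 from -0.343 to 0.0121 (RES vs. CON), in the Jchain to Ighm log2 ratio from -0.49 to 1.17 (RES vs. CON), and in the members' share of all counts from -0.0734 to 0.00289 (SUS vs. CON) and -0.0628 to 0.00766 (RES vs. CON). With library 52 kept under its label, RES vs. CON was -0.20 for Ighd and -0.39 for the Ighd to Ighm log2 ratio. The r of Igkc with the B lineage genes turned to 0.00945 in Ly6Chigh monocytes with 0.1 CPM added and to -0.107 in Ly6Clow monocytes with group means subtracted. Depth limits Ighg2c and Jchain most, at 1 count or none in some B cell libraries.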
